A study of Mus musculus with 10 samples.

Results

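Sites of normal mouse liver with a peak of H3K4me2 were described. They also carried a peak of H3K27Ac in fresh frozen liver and in both replicate libraries of fixed liver. H3K27Ac, acetylation of a lysine in the tail of histone H3, is laid down by the acetyltransferases CBP and p300 and marks active promoters and enhancers. H3K4me2, dimethylation of another lysine of the same tail, is laid down by methyltransferases of the MLL family and marks promoters and enhancers more broadly, whether active or poised. In liver, elements with both marks include the regulatory regions of genes that hepatocytes use.

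A site was counted where a peak of the H3K4me2 library, on chromosomes 1 to 19 and with a deposited value below 15, overlapped by at least 1 bp a fresh frozen H3K27Ac peak and a peak in both libraries of formalin-fixed, paraffin-embedded (FFPE) liver heated at 65 °C and sonicated for 5 min (written 65 °C/5 min, and likewise for other conditions). Deposited peak values were taken to be −log10 q-values, so a higher value means a stronger call. There were 6975 such sites, or 59.4% of the 11751 H3K4me2 peaks and 61.1% of the 11410 that lay on chromosomes 1 to 19 with a value below 15. The sites were chosen by these overlaps and the H3K4me2 value, so both are given as a description and support nothing. Among all H3K4me2 peaks on chromosomes 1 to 19, 70.2% met the fresh frozen list, 76.7% and 73.4% the 65 °C/5 min lists, and 60.5% all 3. H3K4me2 was measured in FFPE tissue only. "Both marks" therefore means H3K4me2 in FFPE liver and H3K27Ac in fresh frozen and FFPE liver, all of 1 organ. Overlapping peaks of bulk tissue do not show that the marks lay on the same nucleosome or in the same cells.

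All libraries came from full sections of normal mouse liver, and strain, age and the number of animals are not given in the sources used here. The fresh frozen library (H3K27Ac) was crosslinked for 10 min and processed by standard ChIP-seq. FiTAc-seq libraries (H3K27Ac) were made from FFPE sections heated overnight in detergent buffer at 50 °C, 65 °C or 80 °C and sonicated for 5 or 40 min. FiT-seq libraries (H3K4me2 and H3K27Ac) were made from FFPE sections treated with proteinase K. Only 65 °C with 5 min had 2 libraries, called replicates 1 and 2 below, and whether they stem from different animals is not stated, so their spread may be technical. Each other condition rests on a single library, and no test between conditions or classes of peaks was made. The read depth of the lists is unknown. Ranges in parentheses after shares are Wilson 95% intervals and hold counting error alone. Peaks are not replicates, and neighbouring ones are not independent.

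The long H3K27Ac lists held between 38099 and 64465 peaks on chromosomes 1 to 19, against 11616 in the H3K4me2 list. H3K27Ac by FiT-seq gave 112 peaks and FiTAc-seq at 80 °C/40 min gave 55 on these chromosomes.

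The sites were short segments. Their H3K4me2 peaks had a median width of 256 bp, with quartiles of 188 and 363 bp and a range of 146 to 1538 bp, and covered 2040972 bp in all. The 1807 H3K4me2 peaks below the same value that met none of the 3 lists of the rule had a median width of 210 bp. The 1184 that met both 65 °C/5 min libraries but no fresh frozen peak had a median of 211 bp. Their quartiles overlapped, and a wider peak has more room to meet another.

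The H3K4me2 values of the sites were close to those of other H3K4me2 peaks. Its median was 5.52 at the sites and 5.36 at the 1807 peaks without any of the 3 lists. Quartiles were 4.40 and 7.02 at the former and 4.25 and 6.98 at the latter. Only 317 sites had a value of 10 or more. At the upper limit, the 5 sites just inside had values of 14.84 to 14.96. The next 3 peaks that met the rest of the rule had 15.02, 15.11 and 15.13 and were left out. In all, 206 H3K4me2 peaks had a value of 15 or more, and 50 of these met the rest of the rule. Of those 206, 35.9% (29.7 to 42.7) also met one of the few FiT-seq H3K27Ac peaks, whereas of the 6975 sites 0 did and of all H3K4me2 peaks on chromosomes 1 to 19 0.878% did. A count of 0 allows a share of up to 0.043%, taken as 3 peaks of the total.

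The median H3K27Ac value at the sites lay above that of all peaks in each long list. The rule asked for a peak in fresh frozen liver and both replicates, and the highest peak was taken. Both favour high values, so the values in these 3 lists are a description only. In fresh frozen liver the median −log10 q-value of the highest peak at a site was 26.6. All peaks of that list had a median of 9.81, and those that met both replicates one of 13.7. The median at the sites was 30.8 in replicate 1 and 23.2 in replicate 2 at 65 °C/5 min, a mean of 27.02 ± 5.37 (SD, n = 2). All peaks there had medians of 7.54 and 7.44. The sites stood at median percentiles of 83.8, 88.7 and 86.5 of these 3 lists. They were not uniformly high: 10.6% of the sites lay below the median of the fresh frozen list, 3.71% below that of replicate 1 and 7.51% below that of replicate 2.

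In the lists that the rule did not use, the sites also stood above the list's own median. Medians were 26.6 at 50 °C/40 min (6644 sites met) and 25.9 at 65 °C/40 min (6564 sites), against 8.90 and 8.09 over all peaks. At 50 °C/5 min the median was 8.57 over the 4980 sites met, against 5.65 over all peaks. These values depend on each library's depth and background, so their sizes cannot be set against each other between lists. Only sites with a peak have a value, which leaves out the lowest.

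**Figure D1:**
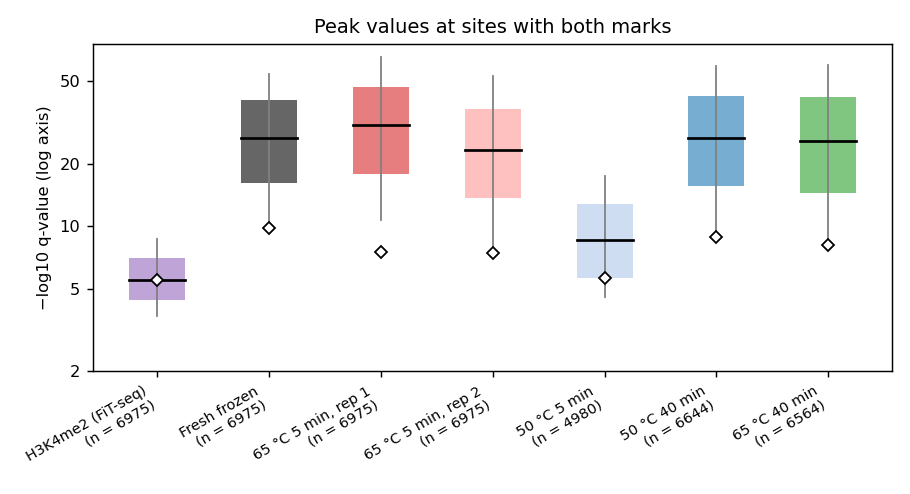
Deposited −log10 q-values (vertical log axis) of the highest peak at each site in 7 lists, with coloured boxes for the quartiles, black bars for the medians, grey lines from the 10th to the 90th percentile, and diamonds for the median of all peaks of that list. The bars stand at 23.2 to 30.8 in the fresh frozen, 65 °C and 50 °C/40 min lists, above diamonds at 7.44 to 9.81, while in the H3K4me2 list bar and diamond coincide near 5.52.

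The H3K4me2 value of a site did not rise with its H3K27Ac value. Across the 6975 sites, Spearman's rho between the H3K4me2 value and the H3K27Ac value was -0.01 for fresh frozen liver, -0.16 for replicate 1 and -0.16 for replicate 2. It was -0.14 at 50 °C/40 min, -0.15 at 65 °C/40 min and -0.11 at 50 °C/5 min, over the sites met there. Points of these correlations are sites of the same libraries and are not replicates.

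Most sites were found again in the 3 long FiTAc-seq lists that had no part in choosing them. The 50 °C/40 min list met 95.3% of the sites (94.7 to 95.7), and 69.7% of all H3K4me2 peaks on chromosomes 1 to 19. The 65 °C/40 min list met 94.1% (93.5 to 94.6), against 68.6% of all H3K4me2 peaks. The 50 °C/5 min list met 71.4% (70.3 to 72.4), against 48.9%. All 3 lists met 4802 sites, or 68.8% (67.7 to 69.9), where 45.5% of all H3K4me2 peaks were met by all 3. A further 1600 sites, or 22.9%, were met by both lists of 40 min but not at 50 °C/5 min. That list alone met 49 sites, and 120 sites, or 1.72% (1.44 to 2.05), were met by none of the 3. For the 1600, 49 and 120 sites the share over all H3K4me2 peaks is not given here. In the other classes of H3K4me2 peak below 15, the share met by none ran from 14.9% to 94.1%. The former was for peaks with both replicates but no fresh frozen peak, the latter for peaks with no list of the rule.

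The share met in these lists was lower in each class of H3K4me2 peak that lacked a list of the rule. Peaks with both replicates but no fresh frozen peak were met in 72.4% (69.8 to 74.9) at 50 °C/40 min, in 71.0% (68.4 to 73.5) at 65 °C/40 min and in 46.3% (43.5 to 49.1) at 50 °C/5 min. The 480 peaks with fresh frozen H3K27Ac but neither replicate were met in 22.3% (18.8 to 26.2), 17.5% (14.4 to 21.2) and 1.67% (0.847 to 3.25), in the same order. Peaks with none of the 3 lists were met in 3.71% (2.93 to 4.68), 3.10% (2.39 to 4.003) and 0.443% (0.225 to 0.871). Each list is 1 library and peaks are not replicates, so these differences were not tested. The classes were themselves formed by H3K27Ac lists of the same organ, among them both FiTAc-seq lists of 65 °C/5 min. How far this alone sets the order was not tested.

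The difference was present in narrow and in wide H3K4me2 peaks. Sites narrower than 200 bp were met at 50 °C/5 min in 71.1% (69.1 to 73.0) and sites of 400 bp or more in 69.9% (67.4 to 72.3). Among peaks with both replicates but no fresh frozen peak, the corresponding shares were 44.1% (40.0 to 48.4) and 46.3% (35.7 to 57.1). The share rose with the H3K27Ac value. At 50 °C/5 min, 34.2% (31.8 to 36.7) of the sites in the lowest quintile of the replicate 1 value were met and 95.1% (93.8 to 96.1) in the highest. By fresh frozen value the shares were 51.2% (48.6 to 53.8) and 87.9% (86.1 to 89.5). Over the quintiles of H3K4me2 value, from the lowest, the shares were 72.0%, 74.6%, 73.5%, 70.5% and 66.2%, a smaller span with no steady rise.

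**Figure D2:**
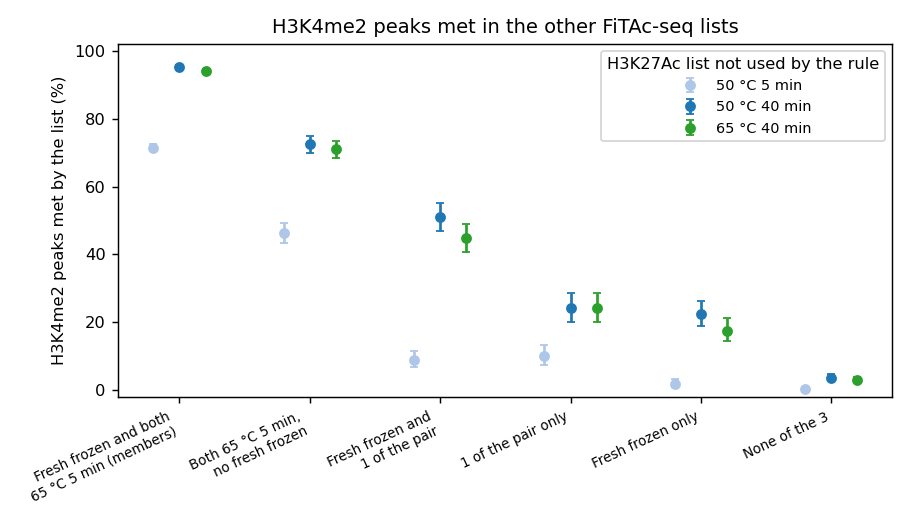
Share of H3K4me2 peaks (vertical axis, %) met by each of the 3 FiTAc-seq lists that the rule did not use, for 6 classes of H3K4me2 peak by the lists of the rule they meet, with Wilson 95% intervals. The sites stand at 71.4% to 95.3%, and the class with none of the 3 lists at 0.443% to 3.71%.

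At 80 °C/40 min 3 sites had a peak, or 0.043% (0.0146 to 0.126), against 0.112% of all H3K4me2 peaks. One lay on chromosome 10, 84039740 to 84039892, one on chromosome 1, 180336042 to 180336249, and the other on chromosome 19, 55818172 to 55818389. Their −log10 q-values at 80 °C were 5.62, 11.07 and 6.90. The chromosome 1 site also had the best mean rank over fresh frozen liver and the replicates among all sites.

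The sites were spread over all 19 chromosomes. They made up 55.3% of the H3K4me2 peaks with a value below 15 on chromosome 13 and 65.8% on chromosome 17, which are the extremes, with a median of 61.0%. The share of sites met at 50 °C/5 min ran from 62.1% on chromosome 18 to 78.9% on chromosome 11. At 50 °C/40 min and at 65 °C/40 min the shares were above 91% on each chromosome, at 91.6% to 96.8% and 91.1% to 95.6%.

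The H3K4me2 peak mostly lay inside the H3K27Ac peak. In fresh frozen liver 5945 midpoints, or 85.2% (84.4 to 86.0), fell within the H3K27Ac peak. The share was 58.8% of all H3K4me2 peaks on chromosomes 1 to 19, many of which met no fresh frozen peak, and 83.7% of the 8156 that met one, close to that of the sites. The whole H3K4me2 peak was contained in a fresh frozen H3K27Ac peak at 3608 sites, or 51.7% (50.6 to 52.9). At 3224 sites, or 46.2%, the peaks overlapped in part, and at 143 sites the H3K4me2 peak spanned the H3K27Ac peak. The rule asked for only 1 bp, but H3K27Ac covered the full H3K4me2 width at the median site in fresh frozen liver and in both replicates. Over all sites together it covered 79.2% of the bases in fresh frozen liver and 89.4% ± 2.48 (SD, n = 2) at 65 °C/5 min.

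Of the FFPE lists, those at 65 °C and at 50 °C/40 min enclosed the sites more often than fresh frozen peaks did, and the 50 °C/5 min list less often. At 65 °C/5 min the H3K4me2 peak was contained whole at 79.8% of sites in replicate 1 and 73.7% in replicate 2, a mean of 76.8% ± 4.36 (SD, n = 2). Of the sites met, 66.0% (64.9 to 67.2) were contained whole at 50 °C/40 min, 63.5% (62.3 to 64.6) at 65 °C/40 min and 45.6% (44.3 to 47.0) at 50 °C/5 min. The median H3K27Ac peak at a site spanned 637 bp in fresh frozen liver, and 1374 and 1225 bp in the replicates, a mean of 1299.5 ± 105 bp (SD, n = 2). The ratio of H3K27Ac to H3K4me2 peak width, taken site by site, had a median of 2.32 in fresh frozen liver. In the replicates it was 5.05 and 4.51. Medians over all peaks were 346 bp in fresh frozen liver and 354 and 353 bp in the replicates. The rule used these 3 lists, and a wide peak is met more readily, so nothing is read from the widths against the list medians. Settings of the peak calling are not given in the sources used here, so calling and tissue cannot be told apart in these widths.

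H3K27Ac fell off around the sites at different distances. A fresh frozen peak was present at 85.2% of midpoints, at 34.0% of positions 500 bp away on either side, at 17.0% at 1000 bp and at 1.24% at 2000 bp. For replicate 1 the shares were 94.7%, 62.5%, 37.5% and 9.62%, and for replicate 2 they were 91.7%, 58.0%, 34.7% and 8.66%. Coverage was below 50% of its midpoint level from 400 bp on in fresh frozen liver, from 800 and 750 bp in the replicates and from 650 bp in both lists of 40 min. The list at 50 °C/5 min began lower, at 56.3%, and passed that point at 600 bp. All sites count in each list, and the rule gave each a peak in fresh frozen liver and both replicates. At 50 °C/5 min 1995 sites had none, and 78.9% of the 4980 met there had their midpoint covered.

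**Figure D3:**
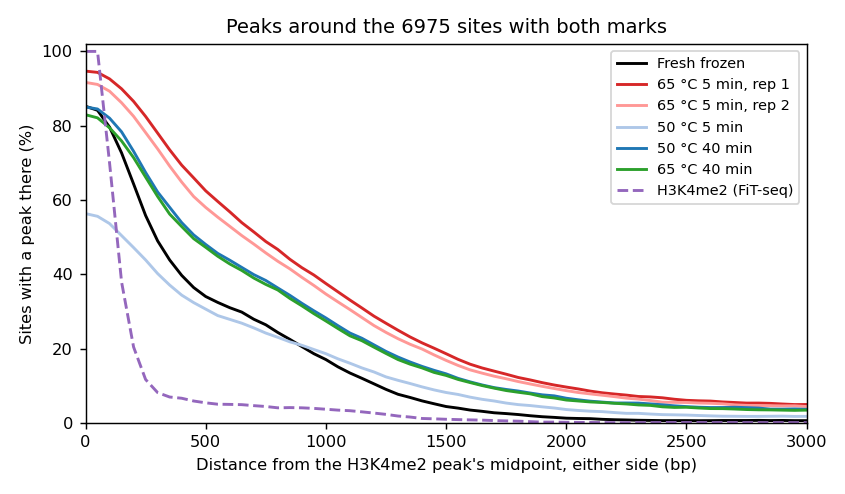
Share of the 6975 sites (vertical axis, %) at which a peak of each list covers the position at a given distance from the H3K4me2 midpoint, both sides pooled (horizontal axis, bp). Sites that a list did not meet also count in its curve. The fresh frozen curve falls from 85.2% to 17.0% over the first 1000 bp, while those of the replicates fall from 94.7% and 91.7% to 37.5% and 34.7%.

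The place of the H3K4me2 midpoint within the H3K27Ac peak is given by the width of that peak. In fresh frozen H3K27Ac peaks of 1000 to 2000 bp, 37.8% (35.0 to 40.7) of 1107 sites had their midpoint in the central 50% of the peak. In fresh frozen peaks under 1000 bp, which held 5860 sites, the share was 50.3% (49.0 to 51.6). In FFPE peaks under 1000 bp it lay on both sides of that value, at 54.6% and 49.5% in the replicates, 52.4% at 50 °C/40 min, 49.7% at 65 °C/40 min and 42.0% at 50 °C/5 min. In FFPE peaks of 1000 to 2000 bp it was 55.2% (53.4 to 56.9) in replicate 1, 53.2% (51.3 to 55.0) in replicate 2, 53.5% (51.4 to 55.7) at 50 °C/40 min, 55.8% (53.6 to 58.0) at 65 °C/40 min and 49.8% (46.7 to 52.8) at 50 °C/5 min. The fresh frozen share was thus the lowest of the 6 lists in this width class alone, and with 1 fresh frozen library the difference was not tested. Peaks of 1000 to 2000 bp are at the wide end of the fresh frozen list and near the middle of the widths at these sites in the 65 °C/5 min lists. In FFPE peaks of 2000 bp or more, 66.4% (64.1 to 68.6) of 1715 sites in replicate 1 and 63.8% (61.3 to 66.3) of 1451 in replicate 2 were in the central 50%.

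Seen from H3K27Ac, few peaks held a site. Those that did were wider and higher at the median, which the overlap rule favours. Of the fresh frozen peaks on chromosomes 1 to 19, 6554, or 13.9%, met a site. Of the peaks in replicates 1 and 2, 10.5% and 11.4% did, and 13.1% did at 50 °C/5 min, 9.83% at 50 °C/40 min and 9.99% at 65 °C/40 min. Fresh frozen peaks with a site had a median width of 616.5 bp and those without one of 315 bp, and their median −log10 q-values were 25.9 and 8.73. In replicate 1 the widths were 1302 and 316 bp and the values 29.3 and 6.73. There were 31429 fresh frozen peaks that met both replicates. Of these, 6748, or 21.5%, also met an H3K4me2 peak of any value. At 50 °C/40 min 96.4% of these were met, close to the 94.0% of the 24681 without H3K4me2. At 50 °C/5 min 77.9% and 61.0% were met. The H3K4me2 list was the shorter one, and its depth is unknown, so a missing H3K4me2 peak does not show that the mark was absent.

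In 4 FFPE lists, the 500 H3K27Ac peaks of highest value held a site less often than each rank class below them down to rank 10000, and more often than those further down. In replicate 1, 29.2% (25.4 to 33.3) of the 500 highest peaks met a site, 36.8% (32.7 to 41.1) of the next 500, 44.3% (41.8 to 46.8) of ranks 1001 to 2500 and 46.6% (44.7 to 48.6) of ranks 2501 to 5000. From there it fell to 32.6% (30.8 to 34.5) of ranks 7501 to 10000, 14.6% of ranks 10001 to 20000, 4.15% of ranks 20001 to 30000 and 1.22% beyond. In replicate 2 the shares of the 500 highest and of ranks 2501 to 5000 were 26.4% (22.7 to 30.4) and 42.9% (41.0 to 44.8). The lists outside the rule gave 22.8% (19.3 to 26.7) and 34.9% (33.0 to 36.8) at 50 °C/40 min, and 23.2% (19.7 to 27.1) and 35.2% (33.4 to 37.1) at 65 °C/40 min.

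Fresh frozen liver and the 50 °C/5 min list did not follow this order. In the former the share was 42.8% (38.5 to 47.2) of the 500 highest and 43.3% (41.4 to 45.3) of ranks 2501 to 5000. In the latter it was 30.2% (26.3 to 34.4) and 27.6% (25.9 to 29.4). Its ranks 501 to 1000 and 1001 to 2500 were still above its 500 highest, at 35.8% (31.7 to 40.1) and 33.3% (30.9 to 35.7). With any H3K4me2 peak of a value below 15 in place of the sites, the shares in replicate 1 were 37.6% (33.5 to 41.9) and 52.9% (50.9 to 54.8).

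The highest peaks of these FFPE lists were also the wide ones, and the part of width in the order was not tested. The 500 highest peaks of replicate 1 had a median width of 3744 bp and ranks 2501 to 5000 one of 1960.5 bp, whereas in fresh frozen liver the medians were 793.5 and 694 bp. In replicate 1, 35.7% (34.6 to 36.9) of the peaks of 1200 to 2400 bp held a site, 29.1% (27.5 to 30.9) of those of 2400 to 4800 bp and 12.6% (10.1 to 15.6) of the 548 peaks of 4800 bp or more. Per kb of H3K27Ac peak these were 0.253, 0.105 and 0.0206 sites. In replicate 2 the densities were 0.250, 0.104 and 0.0192, at 50 °C/40 min 0.205, 0.0745 and 0.0201, and at 65 °C/40 min 0.212, 0.0771 and 0.0148. Wider peaks offer more room for an overlap. Among peaks of 1200 bp or more, the widest class held sites least often in these 4 lists. At 50 °C/5 min, 34.9% (32.8 to 37.0) of the peaks of 1200 to 2400 bp held a site. Of those of 2400 to 4800 bp, 22.8% (18.6 to 27.7) did. Fresh frozen peaks were narrower, and 44.8% (41.7 to 48.0) of the 928 peaks of 1200 to 2400 bp held a site.

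**Figure D4:**
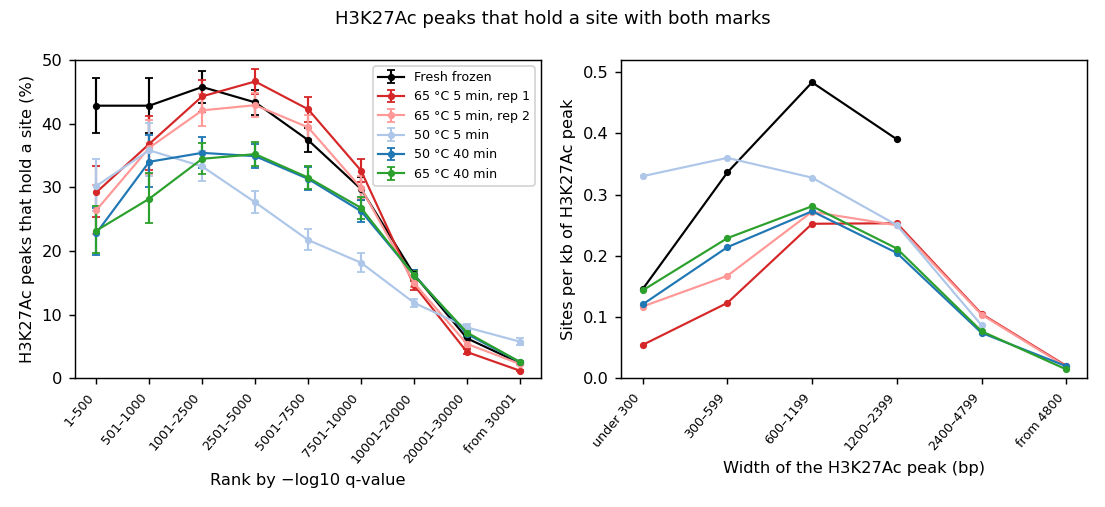
Left, share of H3K27Ac peaks that hold a site (vertical axis, %) by their rank in the list (horizontal axis), with Wilson 95% intervals; right, sites per kb of H3K27Ac peak by the width of that peak (horizontal axis, bp). In both 65 °C/5 min libraries and both lists of 40 min the share is lower in the 500 highest peaks (22.8% to 29.2%) than at ranks 2501 to 5000 (34.9% to 46.6%), and the density falls to 0.0148 to 0.0206 sites per kb in peaks of 4800 bp or more.

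Many sites had another close by. A second site lay within 1500 bp of 1863 sites, or 26.7% (25.7 to 27.8). With any H3K4me2 peak below 15 as the neighbour, 36.4% (35.2 to 37.5) of the sites had one within that distance, close to the 35.4% of all H3K4me2 peaks on chromosomes 1 to 19 with another H3K4me2 peak there. The distance of 1500 bp was chosen after the gaps were seen. Sites fell into 5112 single ones, 867 groups of 2 and 43 groups of 3.

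The 953 neighbouring pairs had a median gap of 414 bp, with quartiles of 169 and 682 bp. In fresh frozen liver 51.1% (47.9 to 54.3) of the pairs lay on 1 and the same H3K27Ac peak. In replicates 1 and 2 the shares were 85.2% (82.8 to 87.3) and 78.9% (76.2 to 81.4). Of the pairs with both sites met, they were 58.2% (54.9 to 61.4) at 50 °C/40 min, 56.4% (53.1 to 59.6) at 65 °C/40 min and 44.1% (40.0 to 48.3) at 50 °C/5 min. The middle of the gap was covered by fresh frozen H3K27Ac in 73.6% (70.7 to 76.3) of pairs and by replicates 1 and 2 in 92.8% (90.9 to 94.2) and 89.4% (87.3 to 91.2). Over all pairs, met or not, it was covered in 79.7% at 50 °C/40 min, 78.1% at 65 °C/40 min and 49.5% at 50 °C/5 min. The rule asked for fresh frozen and 65 °C/5 min peaks at both sites of a pair. A wide peak is met more readily, so the shares in those lists are a description only.

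**Figure D5:**
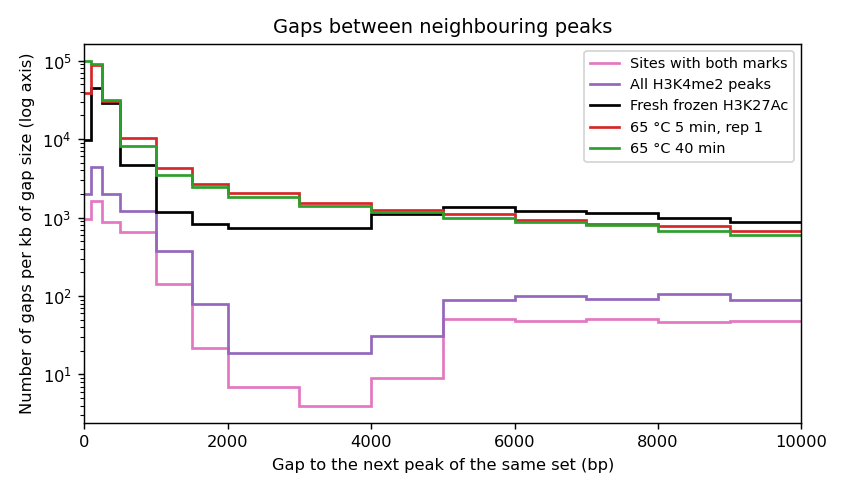
Number of gaps per kb of gap size (vertical log axis) against the gap from one peak to the next of the same set (horizontal axis, bp), for the sites, all H3K4me2 peaks and the fresh frozen, 65 °C/5 min replicate 1 and 65 °C/40 min H3K27Ac lists. The curve of the sites has 953 gaps of up to 1500 bp at its left, then 7 from 2000 to 3000 bp and 4 from 3000 to 4000 bp, and 51 from 5000 to 6000 bp, while the counts of the 2 FFPE lists are lower at 5000 to 7500 bp than at 2000 to 4500 bp, with ratios of the shorter to the longer gaps of 1.71 and 1.66.

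Sites with a neighbour had narrower H3K4me2 peaks than single sites, with medians of 226 and 270 bp, and lay on wider H3K27Ac peaks. Medians of the latter were 683 and 625 bp in fresh frozen liver, 1526 and 1304 bp in replicate 1 and 1388 and 1156.5 bp in replicate 2. The rule used these lists, and a wide peak has more room for another site, so the widths are a description only. Both groups of sites were met alike in the list at 50 °C/5 min, with 72.0% (69.9 to 74.0) and 71.2% (69.9 to 72.4).

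No single H3K27Ac peak of replicate 1 held more than 3 sites. Of 33 peaks with that number, the 3 named here came first with chromosome names sorted as text, where chromosome 10 follows chromosome 1. All 3 were on chromosome 10, and the order says nothing on where the others lay. The first, 60608403 to 60611091, was 2689 bp wide and met 2 fresh frozen peaks. Its H3K4me2 peaks were at 60609112 to 60609439, 60609525 to 60609686 and 60609797 to 60610042, with values of 6.19, 3.55 and 4.17. The second, 82321078 to 82324046, and the third, 128001974 to 128004161, each met 3 fresh frozen peaks, and the H3K4me2 values within them were 7.13, 4.43 and 5.07, and 6.27, 5.55 and 2.79.

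The 5 sites of best mean rank over fresh frozen liver and the replicates had H3K4me2 values of 3.72 to 6.53. All coordinates are on the mouse build mm9. The first was the 208 bp site at chromosome 1, 180336042 to 180336249. Its −log10 q-values were 4.95 for H3K4me2, 101.6 in fresh frozen liver, 148 and 131 in replicates 1 and 2, 40.1 at 50 °C/5 min, 129 at 50 °C/40 min and 137 at 65 °C/40 min. It ranked 17, 8 and 4 among the sites in fresh frozen liver and the replicates, while its H3K4me2 value was below the median of the sites.

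The second, chromosome 19, 3767489 to 3767669, had 5.62 for H3K4me2 and ranked 3 in fresh frozen liver with 110.0. It had 158 and 98.8 in the replicates, 19.3 at 50 °C/5 min, 101.4 at 50 °C/40 min and 114 at 65 °C/40 min. The replicates differed here by more than at the first site, with ranks of 5 and 27.

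The third was chromosome 6, 133055757 to 133056037, with 3.72 for H3K4me2, 104 in fresh frozen liver and 115 and 87.9 in the replicates. At 50 °C/5 min it had 6.32, on a peak of 177 bp, and at 65 °C/40 min the peak was 200 bp wide, where the fresh frozen peak was 838 bp and those of the replicates 1519 and 1560 bp wide. The others were chromosome 18, 32228090 to 32228342, and chromosome 11, 51077396 to 51077580, with H3K4me2 values of 5.85 and 6.53 and fresh frozen values of 90.2 and 88.7. All 5 had a peak in each of the 6 long H3K27Ac lists, and their H3K4me2 peaks were between 181 and 281 bp wide.

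The 5 highest below the limit had H3K27Ac ranks between 353 and 6789 of 6975. Chromosome 5, 23535745 to 23536202, with 14.96 for H3K4me2, had 15.2 in fresh frozen liver, 17.9 and 10.0 in the replicates, 6.59 at 50 °C/5 min, 8.22 at 50 °C/40 min and 9.43 at 65 °C/40 min. Chromosome 7, 50817754 to 50818151, also with 14.96, had 17.7 in fresh frozen liver and 6.46 and 8.54 in the replicates. Chromosome 7, 121706031 to 121706457, had a high fresh frozen value, 64.3 with a rank of 353, but 20.6 and 16.3 in the replicates, with ranks of 4785 and 4634. Chromosome 13, 67161502 to 67161727, and chromosome 4, 97988511 to 97988968, completed the 5 and had no peak at 50 °C/5 min, nor did the first chromosome 7 site.

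Of the 120 sites met by none of the 3 lists outside the rule, the 5 of highest H3K4me2 value had low H3K27Ac in the replicates. Their values there lay between 4.56 and 8.73. Chromosome 19, 47929535 to 47929894, with 12.59 for H3K4me2, had 30.4 in fresh frozen liver, above the median of the sites, and 4.78 and 6.55 in the replicates. The other 4 had fresh frozen values of 5.61 to 13.1. They lay at chromosome 8, 72068870 to 72069052 and 97190583 to 97191042, chromosome 16, 90727115 to 90727484, and chromosome 17, 87424175 to 87424450.

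The 3 widest H3K4me2 peaks among the sites were unlike each other. Chromosome 7, 38968263 to 38969800, was 1538 bp wide with an H3K4me2 value of 13.56 and ranked 1 among the sites in both replicates, with 214 and 162. It had 46.3 in fresh frozen liver, with a rank of 1242, 33.0 at 50 °C/5 min, 153 at 50 °C/40 min and 166 at 65 °C/40 min. It was thus first in FFPE tissue at 65 °C/5 min and far from first in fresh frozen liver. Chromosome 3, 27081844 to 27082848, was 1005 bp wide, with 18.1 in fresh frozen liver and 21.3 and 21.7 in the replicates. Chromosome 6, 34333942 to 34334899, was 958 bp wide and spanned a fresh frozen peak of 298 bp, with 15.6 in fresh frozen liver and 10.2 and 5.34 in the replicates.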

How the data were processed

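BWA, MACS2 and the mouse build mm9 are named, per the submitters' processing notes, whose role and settings in each list are not given in the sources used here. The authors deposited 1 list per library, with no pooling stated. Column 5 was read as the −log10 q-value of each deposited peak, because no long list goes below 2. It describes and ranks peaks within a list only.

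From these lists, overlaps of at least 1 bp, widths, gaps and covered bases were computed. Shares have Wilson 95% intervals. At a site, the value is that of the highest overlapping peak and the width that of the peak of largest overlap. Regions named in the text were the best by mean H3K27Ac rank, those nearest the limit of 15, the highest by H3K4me2 outside the other lists, those with an 80 °C or FiT-seq H3K27Ac peak, the widest, and the peaks with most sites. Sites, lists and settings were chosen with earlier results of these data known. The overlap functions were tested on simulated lists.

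Gene annotation and sequence of mm9 were not used here, so regions carry no gene names, promoter calls or sequences. The input DNA was not analysed here. Alternatives changed the overlap rule, the value limits, merging, chromosomes and replicates. Computation used pandas 2.3.3 and numpy 2.4.6 under Python 3.11.15, intervals scipy 1.17.1, and plots matplotlib 3.10.9.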

Additional observations from a re-analysis of the deposited data

Results flagged for a closer look

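The width of the H3K27Ac peak at the sites differed in opposite directions between the lists of 5 and 40 min at the 2 temperatures. Over the 4802 sites with a peak in all 6 long lists, the median width at 50 °C was 566 bp after 5 min and 994 bp after 40 min, a ratio of 1.76, and 3940 sites had the wider peak after 40 min. At 65 °C the median was 1615 and 1491.5 bp in the replicates of 5 min and 961 bp after 40 min, ratios of 0.595 and 0.644, and 411 and 741 sites had the wider peak after 40 min. The ratio between the replicates was 0.924, and that between the lists of 40 min, 65 °C over 50 °C, was 0.967. The rule used the 65 °C/5 min lists, and a wide peak is met more readily. The part of this in the ratios was not tested. Only 65 °C/5 min had a second library, and the difference between temperatures was not tested. Once peaks 76 bp or less apart were joined, the ratios were 1.91 at 50 °C and 0.657 and 0.712 at 65 °C, and once those 500 bp or less apart were joined 1.35, 0.788 and 0.828.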

How the results depend on the processing

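The number of sites ranged from 5425 to 7389, within 1.5 times 6975, over the alternatives for which it was counted. It was not counted for the alternative that left out 65 °C/5 min peaks over 2000 bp. The number may be lower there, because 1714 sites lay on a replicate 1 peak over that width. With an overlap of 50% of the shorter peak, the shares met at 50 °C/5 min, 50 °C/40 min and 65 °C/40 min were 66.5%, 92.8% and 91.6%, the midpoint share in fresh frozen peaks was 98.2%, the median width 250 bp, and the difference between ranks 2501 to 5000 and the 500 highest of replicate 1 in the share with a site 14 points, against 17.4. With the midpoint rule, which sets the midpoint share by construction, the shares were 63.4%, 91.8% and 90.7%, the width 244 bp and the difference 13.7 points. H3K27Ac values of at least 5 gave 61.4% at 50 °C/5 min and 92.9% at 65 °C/40 min. A limit of 10 gave a width of 251 bp and a difference of 16.7 points. H3K27Ac peaks merged within 500 bp gave a midpoint share of 86.5% and a difference of 21.5 points. H3K4me2 peaks merged likewise gave 73.0% and 95.8% at 50 °C for 5 and 40 min, a midpoint share of 82.0%, a median coverage of 92.6% in fresh frozen liver and a width of 299 bp. Leaving out either replicate gave 67.9% to 70.0% at 50 °C/5 min, 92.9% to 94.2% at 50 °C/40 min, 91.4% to 93.0% at 65 °C/40 min, and differences of 16.5 to 17.5 points, the former over replicate 2 peaks. Without 65 °C/5 min peaks over 2000 bp, an alternative added after seeing the data, as were all for the difference between ranks, the shares were 63.5%, 93.6% and 92.1%. The difference between ranks stayed positive in each setting for which it was computed. Counts, shares and widths cannot change sign, and the shares over all H3K4me2 peaks were not recomputed. Whether the contrasts with those shares hold in each setting was therefore not checked, and the cause of the shifts was not tested. Within 1000 bp, a distance also added later, 24.7% of sites had a neighbouring site. No paired analysis was possible because only 1 condition had 2 libraries. Read depth is unknown, which limits every statement on a missing peak.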

Other observations

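Gaps of a few kb between neighbouring sites were rare. Of the gaps between one site and the next, 12 were 2000 to 4500 bp long and 124 were 5000 to 7500 bp long, a ratio of 0.0968. The H3K4me2 list as a whole had 50 and 233 such gaps, a ratio of 0.215, and fresh frozen H3K27Ac 1928 and 3149, a ratio of 0.612. The FiTAc-seq lists had more of the shorter gaps, with ratios of 1.71 and 1.66 in the 65 °C/5 min replicates, 1.74 at 50 °C/5 min, 1.68 at 50 °C/40 min and 1.66 at 65 °C/40 min. Shorter gaps than these were common between sites, with 882 under 1000 bp. The bounds of these ranges were chosen after the gaps were seen, and settings of the peak calling are not given in the sources used here.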
